A study of Mus musculus with 17 samples.

Results

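Siglecf and Ccr3 are 2 genes of an immuno-oncology panel that mark mouse eosinophils, and they were taken as the rows with those symbols in the count tables of all 17 libraries, 2 of 988 genes measured. Siglecf encodes Siglec-F, a sialic acid-binding surface receptor with an inhibitory cytoplasmic tail whose engagement shortens eosinophil survival. Ccr3 encodes the chemokine receptor through which eotaxins draw eosinophils into tissue. Eosinophils are granulocytes that mature in bone marrow under interleukin 5, and they reside in the lamina propria of the healthy gut. Neither gene is exclusive to them: Siglec-F is also found on alveolar macrophages and intestinal tuft cells, and CCR3 on some mast cells, basophils and T helper cells.

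The libraries came from mouse colon after intraperitoneal azoxymethane, a carcinogen that gives rise to colon tumors and that all 4 groups received. Kit-B6 stands for C57BL/6 mice, and Kit-W/sh for the W-SASH strain, which carries a regulatory mutation of Kit and is known for its lack of mast cells; the mutation is carried in every cell of the animal. Colon tumors were collected at postnatal week 32, after 6 injections over 6 weeks and a further 18 weeks, with 6 libraries from Kit-B6 and 6 from Kit-W/sh. Preneoplastic colon was collected at postnatal week 14, after 3 injections over 3 weeks and a further 3 weeks, with 3 libraries from Kit-B6 and 2 from Kit-W/sh. The comparisons were therefore between genotypes at each stage and between stages in each genotype. The stages also differed in age, in the number of injections and in tissue, which cannot be told apart from stage. The labels did not say that the samples of a group were different animals, so the p-values measure only how far these samples spread, which may be technical.

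Library totals ran from 616009 to 1399902 counts, so a floor of 3 counts lay between 2.14 and 4.87 CPM (counts brought to a common library total). Epcam, a surface protein of epithelial cells, spanned 22175 to 34599 CPM after scaling over the 17 libraries, with overlapping ranges in the 4 groups. The library labelled Kit-W/sh tumor 2 stood apart from the others of that label: Cpa3, a mast cell protease, had 596 counts there and 0 to 13 in the other Kit-W/sh tumors. Kit-B6 tumors had 11 to 359 counts of Cpa3, so low counts alone do not set the labels apart. For Siglecf and Ccr3, the edgeR tests between tumors and across Kit-W/sh stages, the pooled ratios and the shares that include it are also given without it. So is the Ccr3 interaction, but not that of Siglecf. The main Kit-B6 stage tests share a fit with it. In a fit of the Kit-B6 libraries alone, which leaves it out, both genes were still called lower in tumors.

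The promoters are shown because both genes were low in the same 6 Kit-B6 tumor libraries and had stage estimates of opposite sign in Kit-W/sh colon. That contrast between the genes was not tested. Each line gives the 250 bases before the annotated start on the plus strand, from RefSeq with build GRCm38.p6, at chr7:43351091-43351340 for Siglecf and chr9:124021721-124021970 for Ccr3. Capitals mark the motif GATAA, a form of the site read by GATA factors, of which GATA-1 is required for eosinophil development. Other forms of the site, such as GATAG, were not searched or marked.
Siglecf: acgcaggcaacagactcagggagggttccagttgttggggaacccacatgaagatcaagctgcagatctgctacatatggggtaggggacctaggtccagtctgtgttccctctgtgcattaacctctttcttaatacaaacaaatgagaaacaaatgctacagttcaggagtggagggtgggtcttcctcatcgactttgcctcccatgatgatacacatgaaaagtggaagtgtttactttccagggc
Ccr3: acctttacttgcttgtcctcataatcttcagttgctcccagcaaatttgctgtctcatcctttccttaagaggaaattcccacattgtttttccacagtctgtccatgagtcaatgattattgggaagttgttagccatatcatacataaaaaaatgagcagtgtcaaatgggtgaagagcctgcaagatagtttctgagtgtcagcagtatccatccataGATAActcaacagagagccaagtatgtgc
Searched on both strands, the Siglecf window held 0 matches, and the Ccr3 window held 1 on the plus strand, 29 to 25 bases before the start. Of 32851 promoter windows of this length, 22.58% held the motif, so 1 match is common. A match describes letters only. The positions of the panel's amplicons were not used here.

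Siglecf was most abundant in Kit-B6 preneoplastic colon and least abundant in tumors of either genotype. Kit-B6 preneoplastic libraries 1, 2 and 3 had 14, 24 and 42 raw counts. Kit-W/sh preneoplastic libraries 1 and 2 had 14 and 12. Kit-B6 tumors 1 to 6 had 3, 9, 9, 9, 8 and 5 counts. Every Kit-B6 tumor was below every Kit-B6 preneoplastic library, although the tumor libraries were mostly deeper. Kit-W/sh tumors 1 to 6 had 2, 13, 3, 7, 10 and 7 counts, the second library being the highest. Scaled for depth, Siglecf stood at 44.8 ± 19.7 CPM in Kit-B6 preneoplastic colon (SD, n = 3). It stood at 20.9 ± 6.23 CPM in Kit-W/sh preneoplastic colon (SD, n = 2), 7.55 ± 3.58 CPM in Kit-B6 tumors (SD, n = 6) and 5.73 ± 3.34 CPM in Kit-W/sh tumors (SD, n = 6). In that order, the first pair of neighbours nearly touched, at 25.7 CPM for the lowest Kit-B6 and 25.3 CPM for the highest Kit-W/sh preneoplastic library. The next pair was clear of overlap, with the lowest Kit-W/sh preneoplastic library at 16.5 CPM and the highest Kit-B6 tumor at 12.6 CPM. The tumors of the 2 genotypes overlapped throughout.

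Ccr3 had a different order, because Kit-W/sh preneoplastic colon was at the bottom. Kit-B6 preneoplastic libraries 1, 2 and 3 had 9, 10 and 19 raw counts of Ccr3. The 2 Kit-W/sh preneoplastic libraries had 1 and 3. Kit-B6 tumors 1 to 6 had 2, 4, 6, 5, 6 and 4 counts. Both Kit-W/sh preneoplastic values were thus at or under the floor. Kit-W/sh tumors 1 to 6 had 3, 16, 9, 6, 15 and 5 counts, with tumors 2 and 5 the highest of all 12 tumors. The level was 21.4 ± 7.05 CPM in Kit-B6 preneoplastic colon (SD, n = 3) and 7.33 ± 4.38 CPM in Kit-W/sh tumors (SD, n = 6). It was 4.61 ± 1.62 CPM in Kit-B6 tumors (SD, n = 6) and 2.97 ± 1.64 CPM in Kit-W/sh preneoplastic colon (SD, n = 2). Only the first step of that order was free of overlap, from 16.5 CPM in the lowest Kit-B6 preneoplastic library to 12.8 CPM in the highest Kit-W/sh tumor. Among all 988 genes by mean CPM, 31.6% lay below Siglecf and 24.0% below Ccr3 in Kit-B6 preneoplastic colon. In Kit-B6 tumors the shares were 15.9% and 12.8%, which rank amplicons and not transcripts per length.

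**Figure D1:**
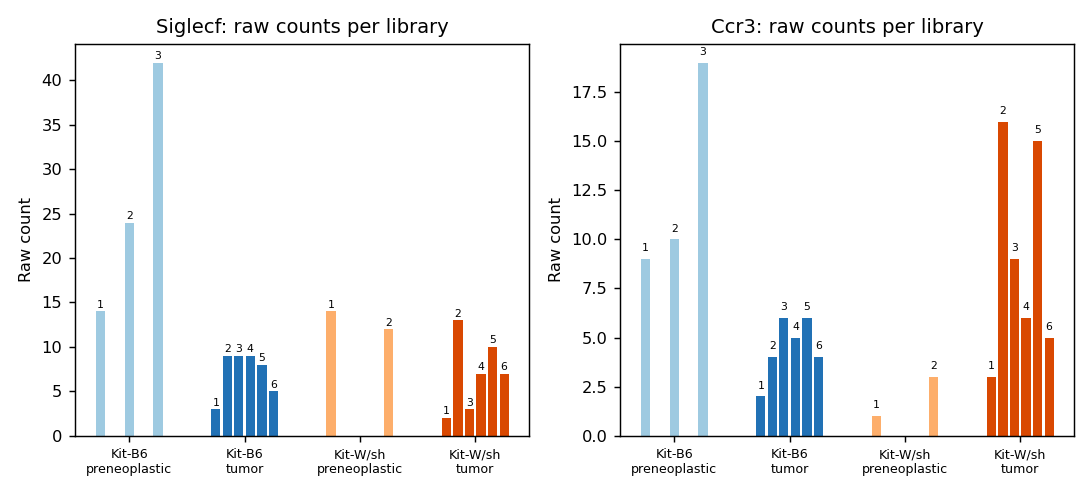
Raw counts of Siglecf (left) and Ccr3 (right), 1 bar per library with its replicate number above it, in the 4 groups (vertical axis in counts, not scaled for depth). Kit-B6 preneoplastic libraries reach 42 counts of Siglecf and 19 of Ccr3, while Kit-W/sh preneoplastic libraries have 14 and 12 counts of Siglecf and only 1 and 3 of Ccr3.

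**Figure D2:**
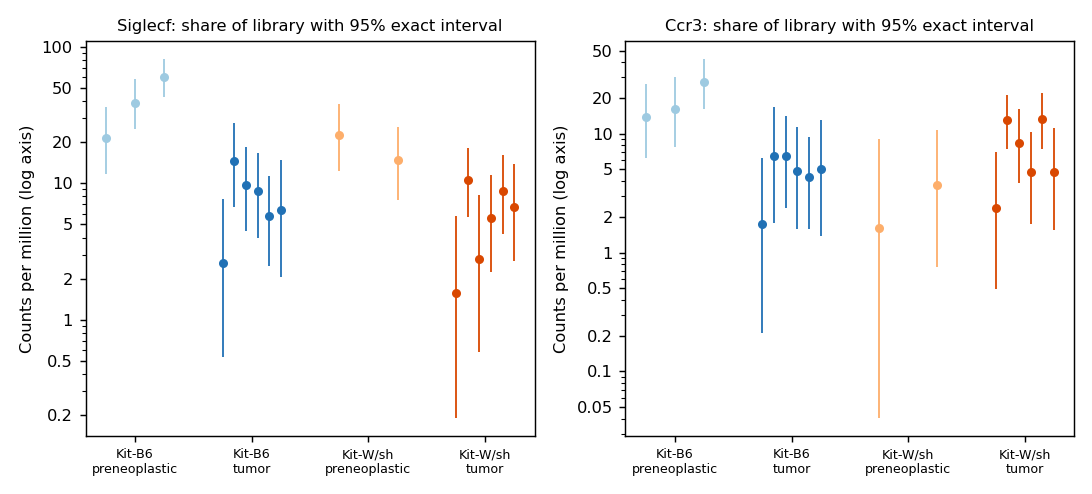
Unscaled CPM of Siglecf (left) and Ccr3 (right) on log axes, 1 point per library, with bars for the exact 95% binomial interval, which covers counting error only. The intervals are wide where counts are few, as for the Kit-W/sh preneoplastic libraries with 1 and 3 counts of Ccr3.

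In Kit-B6 mice both eosinophil genes were lower in tumors than in preneoplastic colon. Siglecf fell by 2.58 ± 0.53 on the log2 scale (SE) and Ccr3 fell by 2.21 ± 0.52, with adjusted p-values of 0.00149 and 0.00369 in edgeR's quasi-likelihood test with Benjamini-Hochberg adjustment. No tumor overlapped a preneoplastic library for either gene, so all 6 tumors showed the direction. Within this comparison both genes passed the count filter of 9.73 CPM mostly through the preneoplastic libraries, all of which reached it. Of the Kit-B6 tumors only tumor 2 reached it for Siglecf, and none did for Ccr3. Pooled over libraries, 43 counts of Siglecf in tumors against 80 in preneoplastic colon gave a depth-corrected ratio of 0.180 (exact 95% interval 0.121 to 0.263, counting error only). For Ccr3, 27 counts against 38 gave 0.237 (0.139 to 0.399). Among the 869 genes tested, 18.9% were called lower and 13.1% had non-overlapping groups with tumors lower. Calls split into 193 higher and 164 lower, against 273 and 101 with unscaled totals, 415 and 43 with scaling to 3 reference genes, and 162 and 83 with scaling to Tfrc and Rpl13a. Both genes remained called lower under all of these scalings. The 3 reference genes were Tfrc, Rpl13a and B2m, and B2m was itself called lower in tumors. Its log2 difference was -1.90 in Kit-B6 (edgeR adjusted p = 8.38e-05) and -0.98 in Kit-W/sh (edgeR adjusted p = 0.0186). Scaling to the 3 genes is therefore not a neutral check. Two-sided exact permutation tests on log2(CPM + 1) gave p = 0.0119 for each gene, the smallest that 6 libraries against 3 allow, and 0.0476 after adjustment over 8 tests.

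In bulk tissue, fewer eosinophils and less of these transcripts per cell cannot be told apart. Lists of other cell types moved over the same libraries. Summed over 9 T cell genes, the level was 587 to 1624 CPM in Kit-B6 preneoplastic colon and 189 to 533 CPM in Kit-B6 tumors, with no gene at 0 throughout a group. Summed over 8 measured B cell genes, it was 152 to 2915 CPM and 32.9 to 800.1 CPM. Summed over 7 macrophage genes, of which Marco was at 0 in every library, it was 1229 to 1312 CPM and 1463 to 3765 CPM. Summed over 6 neutrophil genes, of which 2 were at 0 in Kit-B6 preneoplastic colon, it was 13.9 to 27.5 CPM and 76.2 to 401 CPM. In edgeR, 18.9% of all 869 genes were called lower in tumors and 22.2% higher. Of T cell genes 4 of 9, and of tested B cell genes 4 of 7, were called lower and 0 higher, and the B cell sums overlapped. Of 5 tested neutrophil genes 4 were called higher, and of 6 macrophage genes 3 higher and 1 lower, Cd163, a scavenger receptor (adjusted p = 0.0457). Their part in the Siglecf and Ccr3 differences was not tested.

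In Kit-W/sh mice the stage estimates of the 2 genes had opposite signs, and only that of Siglecf passed. The difference between the genes was not tested. From preneoplastic colon to tumors Siglecf fell by 1.84 ± 0.61 on the log2 scale (SE), with an adjusted p of 0.0263 in edgeR, and all 6 tumors were below both preneoplastic libraries. Ccr3 had a log2 difference of 1.23 ± 0.76 (SE) in the other direction, with an adjusted p of 0.202, and the groups overlapped. Pooled, 42 counts of Siglecf in tumors against 26 gave a ratio of 0.332 (exact 95% interval 0.199 to 0.564). For Ccr3, 54 counts against 4 gave 2.77 (1.02 to 10.5). Without the library labelled Kit-W/sh tumor 2 the ratios were 0.278 (0.158 to 0.491) for Siglecf and 2.37 (0.852 to 9.12) for Ccr3, whose interval then included 1. Among the 869 genes, 18.8% were called lower and 28.7% had non-overlapping groups with tumors lower. Calls split into 182 higher and 163 lower, against 253 and 108 with unscaled totals, 281 and 75 with 3 reference genes, and 240 and 103 with the 9 genes listed last. The exact permutation test gave p = 0.0714 for Siglecf and 0.179 for Ccr3, adjusted to 0.190 and 0.267, where 0.0357 is the smallest p that 6 against 2 allow. Without the library labelled Kit-W/sh tumor 2, edgeR gave -2.08 for Siglecf (adjusted p = 0.0159) and 1.01 for Ccr3 (adjusted p = 0.285). The Siglecf call ended when either preneoplastic library was left out, at -1.51 without the first (adjusted p = 0.211) and -2.12 without the second (adjusted p = 0.0693), and with 3 reference genes at -1.36 (adjusted p = 0.105). The T cell sum was 695 to 817 CPM in Kit-W/sh preneoplastic colon and 297 to 797 CPM in Kit-W/sh tumors, which overlapped. The other 3 sums did not overlap: B cell genes stood at 151 to 327 CPM and 18.1 to 122 CPM, neutrophil genes at 18.1 to 20.6 CPM and 387 to 952 CPM, and macrophage genes at 1302 to 1547 CPM and 2468 to 4112 CPM. In edgeR 18.8% of all genes were called lower and 20.9% higher. Of the listed genes, 1 of 9 T cell and 0 of 7 B cell genes were called lower, 4 of 5 neutrophil genes higher, and of 6 macrophage genes 4 higher and 1 lower. Their part was not tested.

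Between genotypes at the preneoplastic stage, both genes had lower values in Kit-W/sh colon, but neither passed the test. Ccr3 had a log2 difference of -2.74 ± 0.66 (SE) with an unadjusted p of 0.00503 in edgeR and an adjusted p of 0.253. It ranked 15 of 777 genes by p and 5 from the lowest by log2 difference. Siglecf had -1.13 ± 0.55 with an adjusted p of 0.511. The pooled counts of Ccr3, 4 against 38, gave a ratio of 0.145 (exact 95% interval 0.0375 to 0.402), and those of Siglecf, 26 against 80, gave 0.446 (0.275 to 0.702). These intervals lie below 1 on counting error alone and leave out the spread between libraries. In this comparison edgeR called 0.129% of genes, 1 of 777, and 13.4% had non-overlapping groups with Kit-W/sh lower. Both Ccr3 and Siglecf were without overlap, Siglecf only narrowly and only after scaling: unscaled, the lowest Kit-B6 library was at 21.4 CPM and the highest Kit-W/sh library at 22.5 CPM. With 3 libraries against 2 the exact permutation test cannot go below 0.1, which Ccr3 reached, and Siglecf gave 0.2. Ccr3 entered the fit through the Kit-B6 libraries, since 2 of 5 libraries reached the count filter.

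Lymphocyte genes varied across the same 5 preneoplastic libraries. The B cell sum was 152, 2915 and 1009 CPM in Kit-B6 libraries 1, 2 and 3, and 327 and 151 CPM in the 2 Kit-W/sh libraries. Mast cell genes summed to 595 to 832 CPM in Kit-B6 and 389 to 438 CPM in Kit-W/sh preneoplastic colon over 9 measured members. Much of that sum was Kit, the stem cell factor receptor, at 377 CPM on average in Kit-B6 and 120 CPM in Kit-W/sh, and Hpgds, a prostaglandin synthase, at 233 and 229 CPM. In Kit-W/sh the mast cell genes Ms4a2, Cpa3 and Tpsab1 were at 0 in both libraries. In Kit-B6 Tpsab1 was at 0 in all 3 as well, Cpa3 had 3, 6 and 1 counts and Ms4a2 had 2, 1 and 3. The mast cell proteases Tpsb2 and Cma1 were present in Kit-W/sh, with 4 to 7 and 7 to 8 counts. Kit-B6 libraries had 5 to 17 counts of Tpsb2 and 0 to 14 of Cma1. The part of these cells in the Ccr3 values was not tested.

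Between genotypes in tumors, neither gene passed a test. Counts were too few for the main fit: 3 of 12 tumors reached its filter of 9.07 CPM for Siglecf and 2 of 12 for Ccr3, and each gene had under 10 raw counts in 10 of 12 tumors. With no filter, edgeR gave a log2 difference, Kit-W/sh against Kit-B6, of -0.40 ± 0.52 for Siglecf (adjusted p = 0.757) and 0.65 ± 0.49 for Ccr3 (adjusted p = 0.583). The exact permutation test gave p = 0.392 for Siglecf and 0.264 for Ccr3. Pooled ratios were 0.825 (exact 95% interval 0.526 to 1.29) for Siglecf and 1.69 (1.05 to 2.79) for Ccr3. Counting error thus allows up to 1.29 times more Siglecf in Kit-W/sh tumors, and the test at this depth does not show that the genotypes were alike. Without the library labelled Kit-W/sh tumor 2, which had the most Siglecf and Ccr3 counts of all tumors, unfiltered edgeR gave -0.65 ± 0.53 (adjusted p = 0.533) and 0.43 ± 0.49 (adjusted p = 0.674). The pooled ratios were then 0.690 (0.416 to 1.13) for Siglecf and 1.44 (0.857 to 2.45) for Ccr3, so the Ccr3 interval included 1. The mean log2(CPM + 1) differences without it were -0.58 for Siglecf (exact permutation, adjusted p = 0.277) and 0.29 for Ccr3 (exact permutation, adjusted p = 0.474).

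The difference between genotypes in the stage change was tested as an interaction. For Ccr3 it was 3.43 ± 0.93 on the log2 scale (SE), with an unadjusted p of 0.00194 that ranked 3 of 869 genes, and an adjusted p of 0.561 in edgeR. For Siglecf it was 0.74 ± 0.86 with an adjusted p of 0.874. edgeR called 0% of the 869 genes, with 63 at an unadjusted p under 0.05, while DESeq2 called 1 gene, which was neither of these. The Ccr3 estimate rests on the 4 counts of Kit-W/sh preneoplastic colon, and it stayed positive, from 3.02 to 4.16, when each library was left out in turn. Without the library labelled Kit-W/sh tumor 2 it was 3.22 (adjusted p = 0.612).

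**Figure D3:**
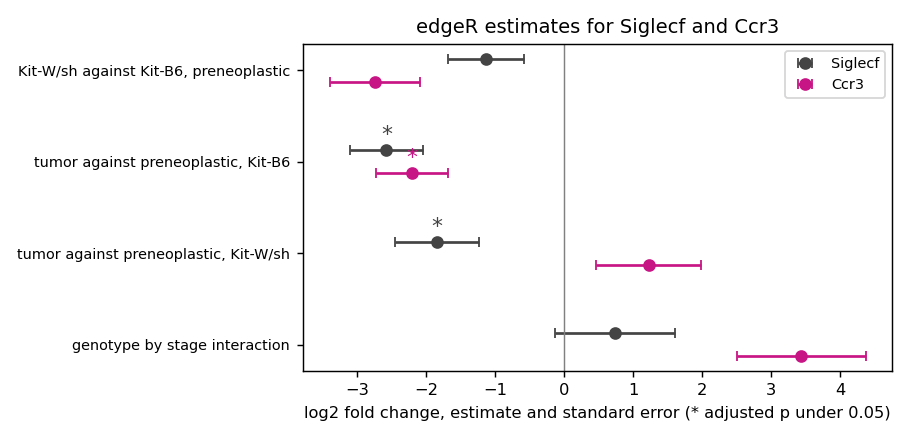
Log2 fold changes of Siglecf and Ccr3 in edgeR with standard errors (horizontal axis) for the 4 comparisons in which they were tested, a star marking an adjusted p under 0.05. For Kit-B6 tumors against preneoplastic colon Siglecf is at -2.58 and Ccr3 at -2.21, and in Kit-W/sh Siglecf is at -1.84 while Ccr3 is at 1.23.

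The balance of the 2 genes is given as a description. Of the counts of both genes together, Ccr3 gave 32.2% in Kit-B6 preneoplastic colon (exact 95% binomial interval 23.9 to 41.4%) and 38.6% in Kit-B6 tumors (27.2 to 50.97%). It gave 13.3% in Kit-W/sh preneoplastic colon (3.76 to 30.7%), where it rests on 4 counts of Ccr3, and 56.2% in Kit-W/sh tumors (45.7 to 66.4%). Without the library labelled Kit-W/sh tumor 2 the last share was 56.7% (44.04 to 68.8%). Amplicons can differ in yield, so these shares compare groups and not the 2 transcripts. Siglecf had the higher count in all 6 Kit-B6 tumors, and Ccr3 in 4 of 6 Kit-W/sh tumors. The difference in balance was not tested. Over the 12 tumors, log2(CPM + 1) of the genes gave Pearson's r = 0.63 (permutation p = 0.0282, adjusted over 5 relations 0.0705) and Spearman's rho = 0.64 (permutation p = 0.0276, adjusted 0.0690). Without the 2 tumors farthest from the Siglecf median, the first of each genotype, r was 0.22 (permutation p = 0.536, n = 10), so the relation rests on those samples. Within Kit-B6 tumors r was 0.93 (exact permutation p = 0.00694, adjusted 0.0347, n = 6), and rho was 0.94 (exact permutation p = 0.0167, adjusted 0.0690), which missed the threshold after adjustment. Within Kit-W/sh tumors r was 0.74 (exact permutation p = 0.1, n = 6) and rho 0.71 (exact permutation p = 0.136). Over the 11 tumors other than Kit-W/sh tumor 2, r was 0.59 (permutation p = 0.0561).

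**Figure D4:**
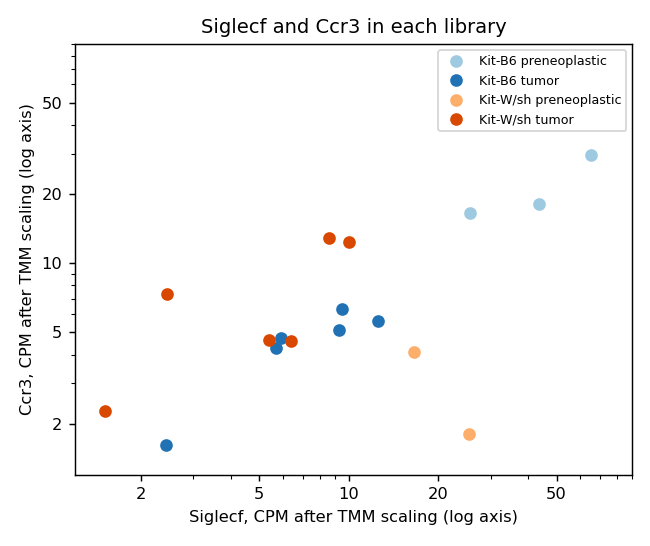
Ccr3 against Siglecf in each of the 17 libraries, both in CPM after scaling on log axes and colored by group. Kit-B6 preneoplastic libraries lie at the upper right, and the 2 Kit-W/sh preneoplastic libraries hold Siglecf at 16.5 and 25.3 CPM with Ccr3 at 4.13 and 1.81 CPM.

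Of 12 eosinophil genes listed, the panel measured 4, the other two being Prg2 and Il5ra. Prg2 encodes major basic protein, a toxic granule protein of eosinophils. Its counts were 6, 33 and 43 in Kit-B6 preneoplastic colon and 12 and 18 in Kit-W/sh preneoplastic colon. They were 12, 25, 5, 18, 37 and 4 in Kit-B6 tumors and 25, 86, 33, 26, 21 and 70 in Kit-W/sh tumors. Kit-B6 preneoplastic library 1, lowest of its group in Siglecf and Ccr3, was also lowest in Prg2. The stage difference of Prg2 was -1.47 ± 0.66 on the log2 scale in Kit-B6 (SE, edgeR adjusted p = 0.0826) and 0.61 ± 0.82 in Kit-W/sh (adjusted p = 0.563). Between genotypes Prg2 had -1.0 ± 0.75 in preneoplastic colon (adjusted p = 0.635) and 1.09 ± 0.56 in tumors (adjusted p = 0.412). Without the library labelled Kit-W/sh tumor 2, which had the most Prg2 counts, the tumor difference was 0.81 (adjusted p = 0.477) and the Kit-W/sh stage difference 0.34 (adjusted p = 0.743).

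Il5ra encodes the interleukin 5 receptor alpha chain, which eosinophils and some B cells carry. Its counts were 4, 15 and 8 in Kit-B6 and 3 and 1 in Kit-W/sh preneoplastic colon. They were 20, 35, 17, 16, 11 and 81 in Kit-B6 tumors and 26, 22, 57, 24, 38 and 42 in Kit-W/sh tumors. Il5ra rose with stage in Kit-W/sh by 3.10 ± 1.08 on the log2 scale (SE, edgeR adjusted p = 0.0316), against 1.09 ± 0.74 in Kit-B6 (adjusted p = 0.242). It therefore did not follow Siglecf, which fell in the same comparison. The Il5ra call ended without either Kit-W/sh preneoplastic library (adjusted p = 0.0973 without the first and 0.224 without the second) and with Tfrc and Rpl13a (0.0577). Of the 4 eosinophil genes, 2 fell and none rose with stage in Kit-B6, where 18.9% of all genes were called lower and 22.2% higher, with a median of -1.84 against 0.00 over all genes tested. The genes that fell were Siglecf and Ccr3 themselves, so the count adds nothing on the other two. In Kit-W/sh 1 rose and 1 fell, against 20.9% higher and 18.8% lower over all genes, with a median of 0.92 against 0.08. With 4 genes, nothing particular to the list is read from these counts. Between genotypes none passed: the 3 tested in preneoplastic colon were all lower in Kit-W/sh, with a median of -1.13 against -0.01 over all genes. All 4 had positive interaction estimates with a median of 2.04, and none passed. The stage comparisons and the interaction use the same libraries and are not separate evidence.

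CCR3 binds several chemokines, of which the panel measured 3 of 7 listed. Ccl11 encodes eotaxin-1, a main eosinophil attractant. Its level was 75.2 to 256 CPM in the Kit-B6 preneoplastic libraries, and in the 2 Kit-W/sh ones it was 36.2 and 110 CPM. It passed no test, with stage differences of -0.24 in Kit-B6 (edgeR adjusted p = 0.787) and 1.24 in Kit-W/sh (adjusted p = 0.241). Ccl5 encodes RANTES, made by T cells among others. Ccl5 fell by 1.35 ± 0.44 on the log2 scale with stage in Kit-B6 (adjusted p = 0.0232), from 149 ± 49.4 CPM (SD, n = 3) to 58.5 ± 37.9 CPM (SD, n = 6). In Kit-W/sh Ccl5 fell by 2.43 ± 0.48 (adjusted p = 0.00125). Ccl7, a monocyte attractant, rose with stage in Kit-W/sh by 2.88 ± 1.05 (adjusted p = 0.0388), and had 1.71 ± 0.83 in Kit-B6 (adjusted p = 0.104). The Ccl5 call in Kit-B6 ended without preneoplastic library 1 (adjusted p = 0.0685) or 2 (0.113) and under 4 of 5 other scalings (0.0655 to 0.416), and in Kit-W/sh without preneoplastic library 1 (0.0512). The Ccl7 call ended without Kit-W/sh tumor 3 or 4 or either preneoplastic library (adjusted p = 0.0528 to 0.252) and with Tfrc and Rpl13a (0.0689). The ligands thus did not move as a group, with 0 higher and 1 lower in Kit-B6 and 1 of each in Kit-W/sh, and none passed between genotypes. Over all genes the shares were 22.2% higher and 18.9% lower in Kit-B6, and 20.9% and 18.8% in Kit-W/sh.

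**Figure D5:**
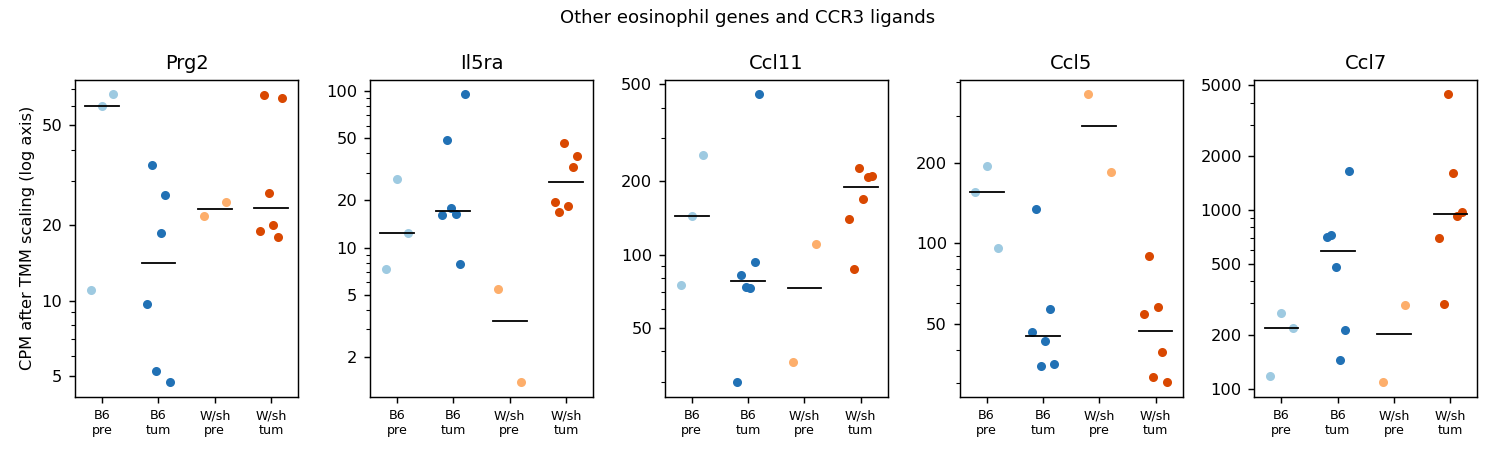
Prg2, Il5ra and the CCR3 ligands Ccl11, Ccl5 and Ccl7 in each library (points, CPM after scaling on log axes), with a line at each group's median. Ccl5 lies lower in tumors of both genotypes, whereas Il5ra is lowest in the 2 Kit-W/sh preneoplastic libraries, with 3 and 1 counts.

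Of 21 listed genes of the interleukin 5 and type 2 axis, 10 were measured and 9 tested across stages. In Kit-B6, 3 rose and 1 fell, beside 22.2% higher and 18.9% lower over all genes, and nothing particular to the list is read from these counts. Il33, an alarmin that activates type 2 lymphoid cells, rose by 3.06 on the log2 scale (edgeR adjusted p = 0.00026), Gata3, a type 2 lineage factor, by 1.64 (adjusted p = 0.0173), and Csf2rb, the beta chain shared by the interleukin 5, interleukin 3 and GM-CSF receptors, by 1.13 (adjusted p = 0.0257). Il13, a type 2 cytokine, fell from 22 counts over the 3 preneoplastic libraries to 0 in all 6 tumors, at least 22.0-fold lower against a floor of 3 counts over the group (edgeR adjusted p = 0.000826). In Kit-W/sh, 4 rose and 1 fell, beside 20.9% and 18.8%. Il33 rose by 4.93 (adjusted p = 0.000136), Csf2, which encodes GM-CSF, by 4.57 (adjusted p = 0.0101), and Csf2rb by 1.48 (adjusted p = 0.0179), beside Il5ra. Il13 fell there from 17 counts in 2 libraries to 5 in 6, 16.6 times more in preneoplastic colon (exact 95% interval 5.86 to 57.4, edgeR adjusted p = 0.0052). The list median was 1.13 in Kit-B6, also with Il13 at its bound, and 2.54 in Kit-W/sh. So Il13 was lower in tumors as Siglecf was, while Il33 was higher. Il13 passed the count filter of 9.73 CPM only through preneoplastic libraries, since its highest count in a tumor was 3. In Kit-B6, calls ended for Gata3 without preneoplastic library 2 or 3 and for Csf2rb without 1 or 3 (adjusted p = 0.0691 to 0.0960). In Kit-W/sh they ended for Csf2 and Csf2rb without either preneoplastic library (0.0718 to 0.140) and for Il13 without the second (0.0601), and for Csf2rb with Tfrc and Rpl13a (0.0644). Il33 passed without each library in turn.

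Among 4 measured Siglec family genes, Siglecf and Cd22, the B cell inhibitory receptor, fell with stage in Kit-B6, Cd22 with a log2 difference of -2.96 (edgeR adjusted p = 0.00631), and Cd33, a myeloid member, rose by 1.04 (adjusted p = 0.0257). Siglece, found on neutrophils and macrophages, had 1.11 (adjusted p = 0.0575). In Kit-W/sh, Siglece rose by 1.68 (adjusted p = 0.0238) and Cd33 by 1.69 (adjusted p = 0.00588), and Siglecf was the 1 member called lower. Cd22 had -1.16 there (edgeR adjusted p = 0.318). Over all genes 18.9% were called lower and 22.2% higher in Kit-B6, and 18.8% and 20.9% in Kit-W/sh. With 4 genes, nothing particular to the family is read from these counts. Among 9 CC chemokine receptors, Ccr3 and Ccr10, a receptor of mucosal plasma and T cells, fell in Kit-B6, Ccr10 with a log2 difference of -1.89 (adjusted p = 0.00917), and none was called higher. That is 2 of 9 lower where 18.9% of all genes were, close to the background and no result about the family. In Kit-W/sh none was called lower, where 18.8% of all genes were, and Ccr2, the receptor of inflammatory monocytes, rose by 1.93 (adjusted p = 0.0481). Single preneoplastic libraries decided most of these calls. In Kit-B6, Cd22 stood at -1.90 without library 2 (adjusted p = 0.0881), Ccr10 at -1.44 without library 3 (0.0726), and Cd33 missed the threshold without library 1 (0.0797) or 2 (0.0981). In Kit-W/sh, Siglece missed it without either preneoplastic library (0.206 without the first and 0.0725 without the second), Cd33 without the first (0.118), and Ccr2 without the first preneoplastic library or without tumor 1, 2, 3 or 6 (0.0644 to 0.338). With 3 reference genes Ccr10 stood at -1.15 (adjusted p = 0.0840). With Tfrc and Rpl13a, Cd33 in Kit-B6 (0.0592) and Siglece (0.0689) and Ccr2 (0.100) in Kit-W/sh missed the threshold.

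Genes of other cells that can carry these receptors were measured beside them. Of 12 tuft cell genes listed, 3 were measured, without the defining factors Pou2f3 and Dclk1. Il17rb, the interleukin 25 receptor, fell by 1.34 ± 0.36 with stage in Kit-B6 (SE, edgeR adjusted p = 0.00806) and fell by 1.53 ± 0.40 in Kit-W/sh (adjusted p = 0.00765), and Ptgs1 and Hpgds passed no test. With 3 reference genes Il17rb stood at -0.62 in Kit-B6 (adjusted p = 0.187) and -1.07 in Kit-W/sh (0.0558), with Tfrc and Rpl13a the adjusted p-values were 0.0542 and 0.0715, and without Kit-W/sh preneoplastic library 1 it stood at -1.12 (0.166). Summed, tuft cell genes ran from 515 to 739 CPM in Kit-B6 preneoplastic colon and 494 to 1038 CPM in Kit-B6 tumors. Of 8 basophil genes listed, Gata2, Hdc and Ms4a2 were measured. Hdc, the enzyme that makes histamine, rose with stage by 2.72 in Kit-B6 (adjusted p = 0.000526) and by 3.84 in Kit-W/sh (adjusted p = 0.000287), and Gata2 passed no test. Ms4a2, a chain of the IgE receptor, was too low to be tested across stages, at 3.38 CPM in Kit-B6 preneoplastic colon and 2.38 CPM in Kit-B6 tumors on average. Neutrophil genes moved with Hdc, 4 of 5 tested being called higher with stage in each genotype. Over all genes 22.2% were called higher in Kit-B6 and 20.9% in Kit-W/sh. The neutrophil part in the Hdc values was not tested. The part of tuft cells and basophils in the Siglecf and Ccr3 values was not tested.

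The genes closest in profile to each member over the 17 libraries were taken by the smallest root mean square difference of centred log2(CPM + 1), among 868 others. For Siglecf these were Cd83 (0.68), a marker of activated dendritic and B cells, Slc16a7 (0.68), a monocarboxylate transporter, Tsc22d3 (0.70), a glucocorticoid-induced gene, Zbtb32 (0.71), a transcriptional repressor, and Fap (0.76), a fibroblast protease. For Ccr3 they were Cd4 (0.71), the T helper co-receptor, Slc16a7 (0.74), Acacb (0.75), an acetyl-CoA carboxylase, Mapre3 (0.76), a microtubule-binding protein, and Lgals9 (0.76), galectin 9. Slc16a7 stood on both lists, at 115 ± 36.3 CPM in Kit-B6 preneoplastic colon (SD, n = 3), 52.2 ± 17.6 CPM in Kit-W/sh preneoplastic colon (SD, n = 2), 41.0 ± 20.7 CPM in Kit-B6 tumors (SD, n = 6) and 31.4 ± 15.9 CPM in Kit-W/sh tumors (SD, n = 6). The difference between Siglecf and Ccr3 themselves was 0.97, rank 75 of 868 for Siglecf and rank 131 for Ccr3.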

How the data were processed

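Libraries were made with the QIAseq targeted RNA mouse immuno-oncology panel, per the labels' protocols. The authors deposited 1 table of whole-number counts per sample, with 993 entries: 988 genes and 5 control amplicons, which had 0 counts and were left out. The submitters' processing notes name mm9 and DESeq2 without a role. The aligner, the counting, the filters and whether reads or molecular tags were counted are not given in the sources used here. Intervals and floors take each count as a separate molecule, and cover counting error only on that reading. They would be too narrow if reads were counted. The deposited counts were tested with edgeR 4.0.16 in R 4.3.3 (scaled by TMM; filterByExpr keeping genes from 10 counts, total 15; robust quasi-likelihood fit; Benjamini-Hochberg adjustment, threshold 0.05). Genotype comparisons used the libraries of 1 stage. Stage comparisons and the interaction came from 1 fit of all 17 libraries, of which 7 for Siglecf and 5 for Ccr3 reached that filter. For Siglecf these were all preneoplastic libraries, Kit-B6 tumor 2 and Kit-W/sh tumor 2. For Ccr3 they were the Kit-B6 preneoplastic libraries and Kit-W/sh tumors 2 and 5. CPM are after TMM scaling. Exact permutation tests were two-sided, with a pseudocount of 1. Replicate numbers came from the titles. All 34 pairs of libraries within groups differed by more than counting noise (lowest chi-square per degree of freedom 13.03). Scripts were tested on simulated counts.

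Named genes were Siglecf and Ccr3, from each list up to 4 genes ranked by p, and the 5 nearest profiles; 1 listed gene is not reported here. The members and lists were chosen with earlier results of these data known. Alternatives were DESeq2 1.42.0, other scalings, filters, fits, pseudocounts, a replicate block, Kit-B6 tumors 4 and 5 summed because their tables' names share a code, and leaving out each library. Scaling to Tfrc and Rpl13a and to the 9 genes listed last was chosen after seeing the data.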

Additional observations from a re-analysis of the deposited data

Results flagged for a closer look

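In the tumor groups, neither Siglecf nor Ccr3 had a library far from the rest; the preneoplastic groups, of 3 and 2 libraries, were not checked. Among the other genes and list sums given, 10 of 28 checks of a tumor group found 1 library set apart from the others of its group. The check's rate of about 1 in 20 assumes normally spread values and separate checks. These were untransformed CPM, and some checks overlapped, as Cpa3 is part of the mast cell sum. So 10 of 28 is not set against chance. Kit-B6 tumor 6 held 455 CPM of Ccl11, against 93.4 CPM in the next Kit-B6 tumor. Kit-B6 tumor 2 held 134 CPM of Ccl5 and 800.1 CPM of summed B cell genes, with Siglecf at 12.6 CPM, the highest of its group. Kit-W/sh tumor 3 held 4468 CPM of Ccl7, with Siglecf at 2.44 CPM. Kit-B6 tumor 5 held 256 CPM of Cpa3 and 1536 CPM of summed mast cell genes, with Ccr3 at 4.28 CPM. The library labelled Kit-W/sh tumor 2 held 460 CPM of Cpa3, 1524 CPM of summed mast cell genes, 797 CPM of summed T cell genes and 61.7 CPM of Slc16a7, with Ccr3 at 12.3 CPM.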

How the results depend on the processing

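Low counts limit every value here: Siglecf had under 10 counts in 10 of 17 libraries and Ccr3 in 13. No result for the 2 genes changed direction under any alternative that gave a value. In Kit-B6, edgeR called both genes lower in tumors in all 20 alternatives for Siglecf (-2.83 to -1.88) and all 18 for Ccr3 (-2.34 to -1.52). Ccr3 was not tested there with a minimum count of 20 or with the replicate block. In the exact permutation tests of that comparison, scaling to 3 reference genes gave -1.76 for Siglecf and -1.36 for Ccr3 (adjusted p = 0.0952 for both), and leaving out 1 library gave -2.79 to -2.14 and -2.18 to -1.78 (adjusted p = 0.0714 to 0.143, since smaller groups raise the smallest p possible). The lower Siglecf in Kit-W/sh tumors missed the threshold in edgeR with 3 reference genes (-1.36, adjusted p = 0.105), with Tfrc and Rpl13a (-1.62, 0.0994), with the 9 genes listed last (-1.60, 0.0616), with the replicate block (-2.04, 0.213) and without either preneoplastic library (left-out range -2.12 to -1.51); the cause was not tested. The correlation over tumors was 0.516 on untransformed CPM (permutation p = 0.0901) and 0.519 to 0.784 leaving out 1 tumor. DESeq2 gave no adjusted p for either gene between genotypes. Genes called between genotypes numbered 27 in tumors with DESeq2 against 0. In preneoplastic colon, against 1, they numbered 21 with DESeq2, 0 with unscaled totals, the 9 genes listed last, the replicate block or a fit of all 17 libraries, and 0 to 16 leaving out 1 library. Across stages they numbered 192 in Kit-B6 with the replicate block against 357. In Kit-W/sh, against 345, they numbered 180 with Tfrc and Rpl13a and 132 to 367 leaving out 1 library, lowest without the first preneoplastic library. The interaction called 1 with DESeq2 and 0 to 2 leaving out 1 library, 2 without Kit-B6 preneoplastic library 1. Same-numbered tumors of the 2 genotypes correlated at -0.19 to 0.39 in their deviations. Kit-W/sh tumors 2 and 5 correlated best with the Kit-B6 tumor of the same number, and 1, 3, 4 and 6 with another. These values show no steady pairing by number and cannot exclude it. Across stages in Kit-W/sh the replicate block left 127 genes called higher and 135 lower. Apart from Siglecf in Kit-W/sh, it changed no call of the 2 genes where it gave a value. Against the main scaling, the median of all genes across stages moved by 0.25, 0.76 and 0.18 in Kit-B6 (unscaled, 3 reference genes, Tfrc and Rpl13a), and by 0.25, 0.45 and 0.15 in Kit-W/sh, and by 0.23 there with the 9 genes listed last. With 3 reference genes the medians of the CCR3 ligand, CC chemokine receptor and tuft cell lists across stages in Kit-B6 turned positive, at 0.49, 0.52 and 0.62. B2m, 1 of these 3 genes, was itself called lower in tumors. The 23 calls of other listed genes across stages kept their direction in all 115 values under 5 other scalings and their call in 99.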
